A study of Mus musculus with 18 samples.

Results

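The genes described here are 7 that encode secreted mediators of regulatory T cells (TR), namely Il10, Fgl2, Areg, Ebi3, Penk, Ifng and Il4. They were chosen by name, with earlier results of these data known, from the 14011 genes of the deposited normalised table. All 7 were among the 12445 genes that passed a filter on low counts, out of 37991 in the count table. RNA was sequenced from 18 libraries of 500 sorted cells each, with 3 libraries in each of 6 groups. The cells were CD4+ T cells from the spleen or the peripheral lymph nodes of 3 littermate mice (84, 86 and 87) on a C57BL/6 background, and all of them carried the Id3-GFP reporter together with Foxp3-mRFP. The sort used viability, CD4, CD44, CD62L and the 2 reporters. Each tissue gave 3 populations. Effector TR without signal of the Id3 reporter are Id3- eTR, whose label gives no CD44 or CD62L gate. Effector TR with that signal are Id3+ eTR (CD62L-low and CD44-high), and central TR with it are Id3+ cTR (CD62L-high and CD44-low). No group was treated, and age and sex are not given in the sources used here. The study is about differentiation in steps marked by Id3, and the comparisons ask at which of the population differences each mediator stands higher.

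Regulatory T cells restrain other immune cells partly through what they secrete, and effector TR are the subset known for producing much of it. IL-10 signals through a receptor of the IL-10RA and IL-10RB chains to dampen myeloid cells, FGL2 binds the inhibitory Fc receptor FcgammaRIIB, and EBI3 is the beta chain that pairs with the product of Il12a in IL-35 or of Il27 in IL-27. Amphiregulin (Areg) is a ligand of the EGF receptor known for tissue repair by TR, and Penk encodes proenkephalin, the precursor of opioid peptides. Ifng and Il4 encode the defining cytokines of T helper 1 and T helper 2 cells. Id3 inhibits E proteins, transcription factors that bind the E-box motif.

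The sequence just upstream of the start site is shown for 4 of the genes as context for the Id3 reporter, as E-boxes are the motif of E proteins. Each line gives the 250 bases before the RefSeq start (build GRCm38.p6, plus strand, 5′ to 3′), with matches to CANNTG in capitals. CANNTG is its own reverse complement, so a match counts for both strands, and no matches overlapped in these windows. The windows are chr5:21372423-21372672 for Fgl2, chr5:91139349-91139598 for Areg, chr17:55952373-55952622 for Ebi3 and chr10:118440796-118441045 for Ifng.
Fgl2: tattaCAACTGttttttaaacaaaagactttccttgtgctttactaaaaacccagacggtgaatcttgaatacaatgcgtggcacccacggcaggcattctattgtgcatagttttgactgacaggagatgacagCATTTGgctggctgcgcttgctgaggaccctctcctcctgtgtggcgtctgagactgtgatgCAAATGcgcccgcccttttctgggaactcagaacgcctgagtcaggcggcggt
Areg: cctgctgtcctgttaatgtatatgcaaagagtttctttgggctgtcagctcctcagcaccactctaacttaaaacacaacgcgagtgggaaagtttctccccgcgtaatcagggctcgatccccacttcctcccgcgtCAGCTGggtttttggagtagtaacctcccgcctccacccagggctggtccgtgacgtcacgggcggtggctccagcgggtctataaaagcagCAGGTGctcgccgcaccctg
Ebi3: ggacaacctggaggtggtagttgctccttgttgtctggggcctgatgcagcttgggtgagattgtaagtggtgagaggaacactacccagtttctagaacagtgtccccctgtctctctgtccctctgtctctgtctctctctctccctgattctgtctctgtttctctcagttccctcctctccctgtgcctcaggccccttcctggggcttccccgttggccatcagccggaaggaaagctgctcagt
Ifng: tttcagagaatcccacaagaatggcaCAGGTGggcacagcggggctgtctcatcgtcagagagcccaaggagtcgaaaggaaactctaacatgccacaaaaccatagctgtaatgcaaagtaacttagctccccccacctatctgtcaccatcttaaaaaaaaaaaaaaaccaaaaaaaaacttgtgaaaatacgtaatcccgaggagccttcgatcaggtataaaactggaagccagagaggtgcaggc
Fgl2 had 3 matches, Areg 2, Ifng 1 and Ebi3 0. The pair of Il4 starts in the table had 3 and 1. Of 32851 windows of this length, 66.2% held at least 1 match, 31.8% at least 2 and 12.2% at least 3. A match is a description of the letters and not of binding, which was not measured here. RefSeq windows were matched by symbol for 5 of the 7 genes, and Il10 and Penk had no entry.

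Library totals ran from 1600782 to 3153325 counts, and 3 spleen libraries stood apart by total or by correlation within their group. The Id3+ cTR libraries of mice 84 and 87 had the lowest totals, 1600782 and 1684461 counts, where the next had 2111016. The Id3+ eTR library of mouse 84 correlated at a Pearson r of 0.904 with both of its partners across genes, where every other pair within a group lay between 0.921 and 0.946. Spleen results are given with and without these 3 libraries wherever a call changed. Foxp3, the gene of the transcription factor that defines TR, stood between 247 and 384 in every library, and none of the 6 population comparisons called it. Levels below are the authors' normalised signal, in which 1 count is worth 0.340 to 0.672 depending on the library. Differences are log2 fold changes ± SE from edgeR's quasi-likelihood test on the counts, with 3 mice per group, and a gene was called at a Benjamini-Hochberg adjusted p under 0.05 over all genes tested. In bulk libraries, fewer cells that express a gene and less RNA per cell cannot be told apart.

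All 7 genes were higher in Id3- eTR than in Id3+ cTR in both tissues, in 3 of 3 mice each. The 7 calls stood against 8.26% of all genes called higher in the lymph node and 7.17% in the spleen. As the 7 genes were chosen with earlier results of these data known, comparisons with all genes are a description and not a test. The median log2 difference of the 7 was 5.79 in the lymph node (5.21 with Il4 at its lower bound) and 4.96 in the spleen (4.92 at the bound), where the median of all genes tested was 0.00 in both. By which comparisons passed the threshold, Il10 and Fgl2 were called between Id3- eTR and Id3+ eTR, whereas Ebi3, Penk, Ifng and Il4 were called between Id3+ eTR and Id3+ cTR in both tissues. Areg was called in the second of these in the lymph node and in the first in the spleen. A direct test of whether the 2 differences of a gene were unequal called 3 genes in the lymph node and 0 in the spleen, and neither Il10 nor Fgl2 in either.

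**Figure D1:**
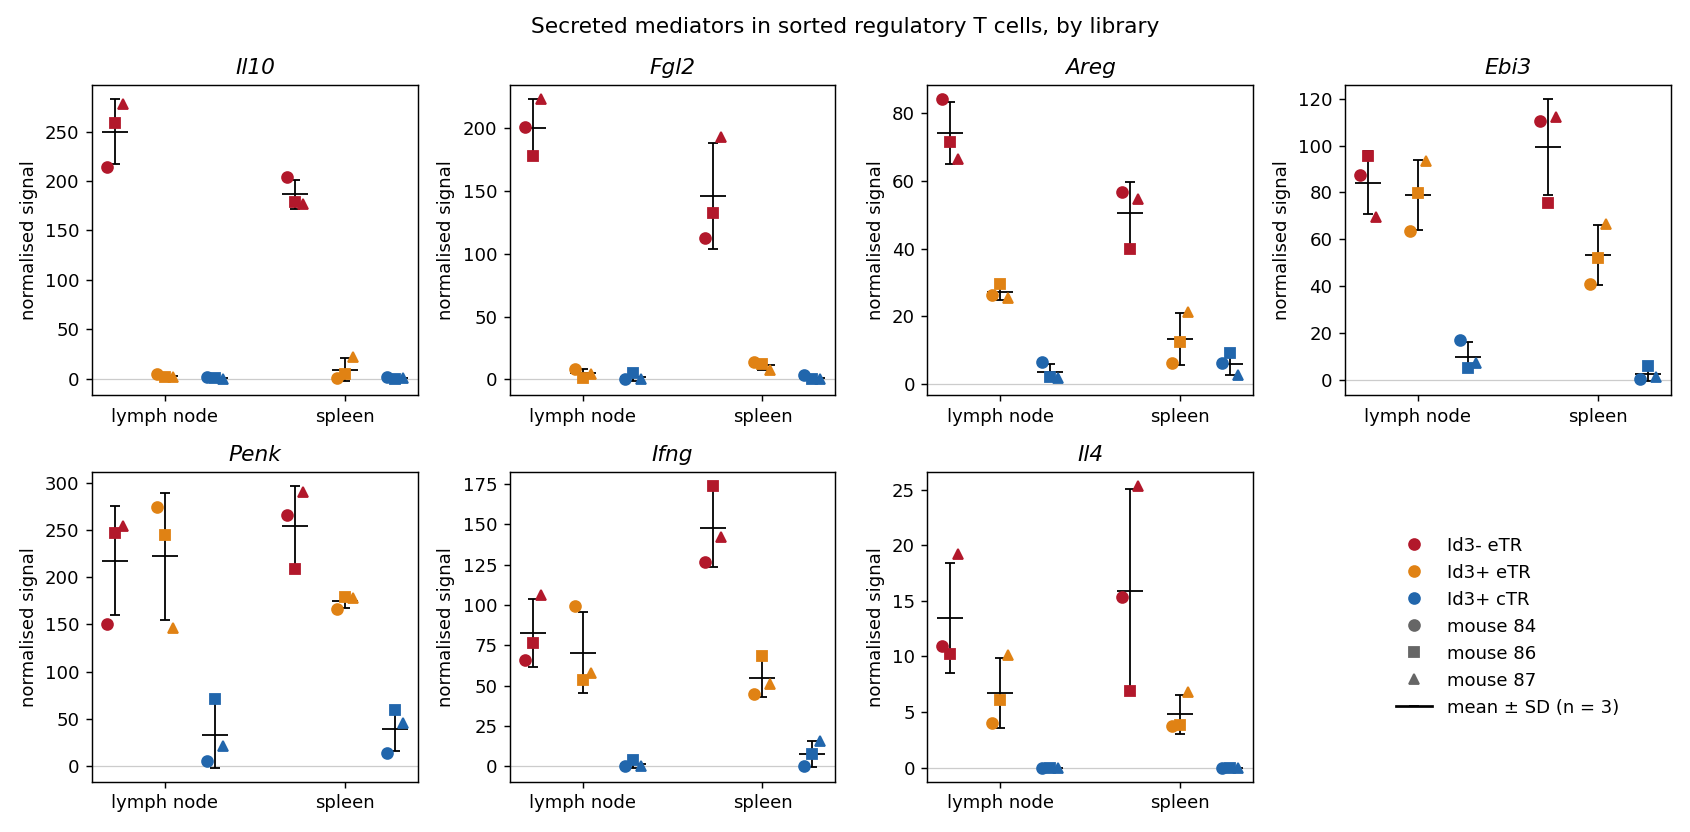
Normalised signal of the 7 genes (vertical axes, 1 scale per gene) in each library, by tissue and population, with the mean and SD of 3 mice. Il10 and Fgl2 are near the axis in Id3+ eTR and Id3+ cTR of both tissues, while Ebi3 and Penk of Id3+ eTR overlap Id3- eTR in the lymph node.

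Il10, the suppressive cytokine, was high in Id3- eTR and near zero in the other populations. In the lymph node it stood at 214, 258 and 278 in Id3- eTR of mice 84, 86 and 87, at 4.96, 2.02 and 1.44 in Id3+ eTR, and at 1.58, 0.340 and 0 in Id3+ cTR. In raw counts these were 528, 682 and 754 in Id3- eTR, 10, 5 and 4 in Id3+ eTR and 4, 1 and 0 in Id3+ cTR. Every Id3- eTR library lay far above every other library, and the ranges of Id3+ eTR and Id3+ cTR overlapped. The log2 difference of Id3- eTR over Id3+ eTR was 6.54 ± 0.72 (edgeR adjusted p = 4.08e-05), and that of Id3+ eTR over Id3+ cTR was 2.02 ± 1.28 (edgeR adjusted p = 0.506). Id3- eTR exceeded Id3+ cTR by 8.56 ± 0.86 (edgeR adjusted p = 2.8e-06).

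In the spleen Il10 stood at 204, 179 and 177 in Id3- eTR, at 0.688, 4.65 and 22.1 in Id3+ eTR, and at 2.02, 0 and 0.641 in Id3+ cTR. Mouse 87 gave 55 of the 68 counts of Id3+ eTR, mouse 86 gave 11 and mouse 84 gave 2, so the Id3+ eTR mean of 9.16 ± 11.4 (SD, n = 3) rests on 1 library. The Id3+ cTR group held 4 counts in all. Id3- eTR was higher than Id3+ eTR by 4.36 ± 0.62 (edgeR adjusted p = 0.00049) and higher than Id3+ cTR by 7.87 ± 0.89 (edgeR adjusted p = 1.23e-05). The difference between Id3+ eTR and Id3+ cTR, 3.51 ± 1.12, was not called (edgeR adjusted p = 0.0876), but it was with DESeq2 (adjusted p = 0.0363) and without spleen Id3+ eTR of mouse 84 (4.10, edgeR adjusted p = 0.0167).

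Fgl2, the ligand of an inhibitory Fc receptor, was likewise far higher in Id3- eTR than in the other populations. Lymph node values were 201, 178 and 223 in Id3- eTR, 8.44, 1.21 and 4.70 in Id3+ eTR, and 0, 5.44 and 0.367 in Id3+ cTR. In the spleen the values were 113, 133 and 193 in Id3- eTR, 13.8, 12.7 and 7.25 in Id3+ eTR, and 3.36, 0 and 0.641 in Id3+ cTR. Id3- eTR libraries did not overlap any other population, while Id3+ eTR and Id3+ cTR overlapped in the lymph node and did not in the spleen. Near the floor, the raw counts of Fgl2 were 17, 3 and 13 in lymph node Id3+ eTR against 0, 16 and 1 in Id3+ cTR, and 40, 30 and 18 in spleen Id3+ eTR against 5, 0 and 1 in Id3+ cTR. The log2 difference of Id3- eTR over Id3+ eTR was 5.43 ± 0.66 in the lymph node (edgeR adjusted p = 0.000118) and 3.68 ± 0.59 in the spleen (edgeR adjusted p = 0.00134). That of Id3+ eTR over Id3+ cTR was 1.15 ± 0.85 in the lymph node (edgeR adjusted p = 0.602) and 3.27 ± 0.94 in the spleen (edgeR adjusted p = 0.0586), where DESeq2 called it (adjusted p = 0.039). Over Id3+ cTR, Id3- eTR were higher by 6.58 ± 0.72 in the lymph node and 6.95 ± 0.82 in the spleen (edgeR adjusted p = 7.04e-06 and 1.87e-05). Without the 3 libraries that stood apart, the 1 spleen Id3+ cTR library left had 0 counts of both Il10 and Fgl2, so no fold is given. Id3- eTR over Id3+ cTR was still called for Il10 (edgeR adjusted p = 0.000306) and for Fgl2 (edgeR adjusted p = 0.00213).

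Areg, the repair-associated EGF receptor ligand, was graded by its values over the 3 populations of the lymph node. In the fit of all groups, neither tissue had both the difference between the effector populations and that of Id3+ eTR over Id3+ cTR called. Lymph node values were 84.2, 71.6 and 66.4 in Id3- eTR, 26.3, 29.4 and 25.3 in Id3+ eTR, and 6.34, 2.04 and 1.84 in Id3+ cTR. The 3 populations did not overlap there. Spleen values were 56.8, 39.8 and 54.7 in Id3- eTR, 6.19, 12.3 and 21.3 in Id3+ eTR, and 6.05, 9.10 and 2.56 in Id3+ cTR, with Id3+ eTR and Id3+ cTR overlapping. Id3- eTR exceeded Id3+ cTR by 4.45 ± 0.51 in the lymph node and by 3.03 ± 0.48 in the spleen (edgeR adjusted p = 1.15e-05 and 0.000359). Id3+ eTR were above Id3+ cTR by 2.99 ± 0.50 in the lymph node (edgeR adjusted p = 0.00122) and by 1.10 ± 0.49 in the spleen (edgeR adjusted p = 0.219).

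Between Id3- eTR and Id3+ eTR the Areg difference was 1.46 ± 0.42 in the lymph node (edgeR adjusted p = 0.0844) and 1.92 ± 0.44 in the spleen (edgeR adjusted p = 0.02). DESeq2 and limma-voom called the lymph node difference (adjusted p = 0.0144 and 0.00416), as did a fit of the compared groups alone (edgeR adjusted p = 0.00838). The spleen call was lost without the 3 libraries that stood apart (1.58, edgeR adjusted p = 0.0518), in a fit of the compared groups alone (edgeR adjusted p = 0.101) and without any of 4 single libraries, Id3- eTR of mouse 84 or 87 and Id3+ eTR of mouse 84 or 86 (edgeR adjusted p = 0.0634 to 0.0666).

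**Figure D2:**
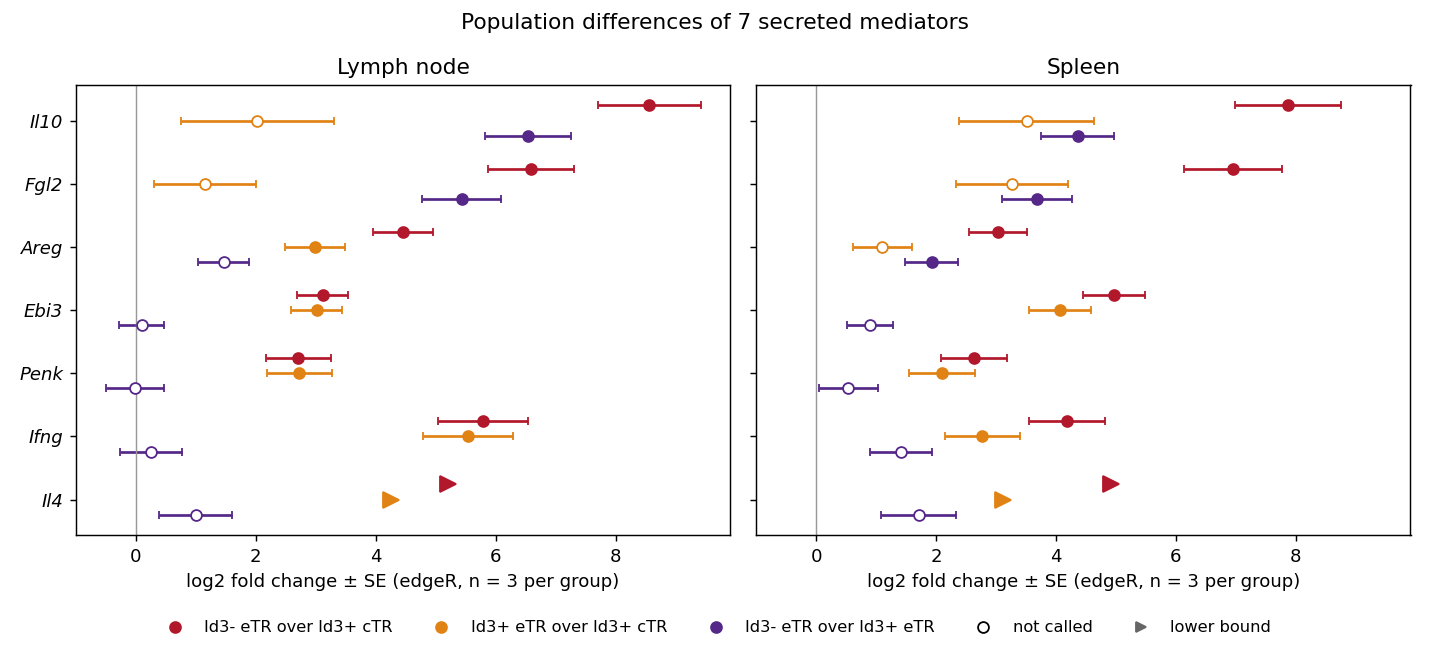
Log2 fold change ± SE of each gene (rows) in the 3 population differences of the lymph node (left) and the spleen (right), from edgeR with 3 libraries per group. Filled points are called, open points are not, and triangles mark lower bounds for Il4, whose Id3+ cTR libraries all had 0 counts. For Il10 and Fgl2 the difference between the effector populations is called in both tissues, and for Ebi3 and Penk in neither.

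Ebi3, the shared cytokine chain, was high in both effector populations. Lymph node values were 87.5, 95.5 and 69.4 in Id3- eTR, 63.5, 79.8 and 93.6 in Id3+ eTR, and 17, 5.10 and 7.35 in Id3+ cTR. The effector populations overlapped, and both lay above every Id3+ cTR library. Spleen values were 110, 75.6 and 112 in Id3- eTR, 40.9, 52.0 and 66.4 in Id3+ eTR, and 0.672, 6.20 and 1.28 in Id3+ cTR, with no overlap between the populations. Id3+ eTR exceeded Id3+ cTR by 3.01 ± 0.43 in the lymph node and 4.07 ± 0.51 in the spleen (edgeR adjusted p = 0.000309 and 0.000222). Id3- eTR exceeded Id3+ cTR by 3.11 ± 0.43 and 4.96 ± 0.51 in the same tissues (edgeR adjusted p = 8.47e-05 and 4.93e-06). Id3- eTR minus Id3+ eTR came to 0.10 ± 0.38 in the lymph node (edgeR adjusted p = 0.964) and 0.90 ± 0.38 in the spleen (edgeR adjusted p = 0.241). The spleen difference was called by limma-voom alone among the alternatives run (0.94, adjusted p = 0.0381).

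The partner chains of Ebi3 were hardly present in the libraries. Il12a had 1 count over all 18 libraries, in lymph node Id3+ eTR, and Il27 had 0, which allows up to 3 counts. Both were named here after their values were seen. Ebi3 itself summed over 3 libraries to 656 counts in lymph node Id3- eTR, 585 in lymph node Id3+ eTR, 758 in spleen Id3- eTR and 407 in spleen Id3+ eTR.

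Penk, the opioid peptide precursor, had the highest normalised signal per kilobase of exon among the 7 genes in Id3+ eTR of both tissues. Lymph node values were 151, 247 and 254 in Id3- eTR, 274, 245 and 147 in Id3+ eTR, and 5.94, 71.1 and 20.9 in Id3+ cTR. Spleen values were 265, 208 and 290 in Id3- eTR, 167, 179 and 178 in Id3+ eTR, and 14.1, 59.5 and 45.5 in Id3+ cTR. Mouse 86 had the highest Id3+ cTR value in both tissues, 209 raw counts in the lymph node and 144 in the spleen. The effector populations overlapped in the lymph node and not in the spleen, and both were above Id3+ cTR throughout. Id3+ eTR exceeded Id3+ cTR by 2.73 ± 0.54 in the lymph node (edgeR adjusted p = 0.00536) and by 2.10 ± 0.55 in the spleen (edgeR adjusted p = 0.0388), and Id3- eTR did by 2.71 ± 0.54 and 2.63 ± 0.55 (edgeR adjusted p = 0.00262 and 0.00366). The difference between the effector populations was -0.02 ± 0.49 in the lymph node (edgeR adjusted p = 0.996) and 0.53 ± 0.49 in the spleen (edgeR adjusted p = 0.649).

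The 2 spleen calls of Penk over Id3+ cTR depended on few libraries to unlike degrees. Both were lost without the 3 that stood apart, which left 1 spleen Id3+ cTR library. There Id3- eTR over Id3+ cTR gave 2.09 and Id3+ eTR over Id3+ cTR gave 1.58. The first call was kept with any single library left out, at 2.26 to 3.10. The second call was also lost without any one of 5 spleen libraries, Id3+ cTR of mouse 84 or 87 or any Id3+ eTR library, at edgeR adjusted p = 0.056 to 0.152. It was lost as well with no filter on low counts (adjusted p = 0.0931) and with limma-voom (adjusted p = 0.0652).

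Ifng, the T helper 1 cytokine, was high in both effector populations of the lymph node and highest in spleen Id3- eTR. Lymph node values were 66.0, 76.2 and 106 in Id3- eTR, 99.3, 53.6 and 58.2 in Id3+ eTR, and 0.396, 3.74 and 0 in Id3+ cTR. Spleen values were 126, 174 and 142 in Id3- eTR, 45.1, 68.5 and 51.1 in Id3+ eTR, and 0, 7.86 and 16 in Id3+ cTR. The effector populations overlapped in the lymph node and were apart in the spleen, and the raw counts of Id3+ cTR were 1, 11 and 0 in the lymph node and 0, 19 and 25 in the spleen. Id3+ eTR exceeded Id3+ cTR by 5.54 ± 0.75 in the lymph node (edgeR adjusted p = 0.000183) and 2.77 ± 0.63 in the spleen (edgeR adjusted p = 0.0176). The spleen call was lost without the 3 libraries that stood apart (2.92, edgeR adjusted p = 0.135), without Id3+ cTR of mouse 86 (edgeR adjusted p = 0.0515), with limma-voom (adjusted p = 0.0584) and in a fit of the compared groups alone (edgeR adjusted p = 0.139). Id3- eTR exceeded Id3+ cTR by 5.79 ± 0.75 and 4.18 ± 0.63 in the lymph node and the spleen (edgeR adjusted p = 4.3e-05 and 0.000237).

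Between the effector populations the Ifng difference was 0.25 ± 0.51 in the lymph node (edgeR adjusted p = 0.923) and 1.42 ± 0.52 in the spleen (edgeR adjusted p = 0.166), where Id3- eTR were higher in 3 of 3 mice. The spleen difference was called with limma-voom (adjusted p = 0.00971) and in a fit of the compared groups alone (edgeR adjusted p = 0.0231).

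Il4, the T helper 2 cytokine, was the lowest of the 7 genes per kilobase of exon in Id3- eTR of both tissues, and no Id3+ cTR library held a count of it. In the lymph node the raw counts were 27, 27 and 52 in Id3- eTR, 8, 15 and 28 in Id3+ eTR, and 0, 0 and 0 in Id3+ cTR. In the spleen they were 41, 14 and 70 in Id3- eTR, 11, 9 and 17 in Id3+ eTR, and 0, 0 and 0 in Id3+ cTR. The normalised signal was 10.9, 10.2 and 19.2 in lymph node Id3- eTR, 3.97, 6.05 and 10.1 in lymph node Id3+ eTR, 15.3, 6.87 and 25.4 in spleen Id3- eTR and 3.78, 3.81 and 6.85 in spleen Id3+ eTR. In both tissues the lowest Id3- eTR library lay only just above the highest Id3+ eTR library.

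With 3 counts over the whole group in place of 0, Il4 was at least 37.1-fold higher in Id3- eTR than in Id3+ cTR in the lymph node (edgeR adjusted p = 0.000181) and at least 30.3-fold in the spleen (edgeR adjusted p = 0.000304). For Id3+ eTR over Id3+ cTR these bounds were at least 19.1-fold higher in the lymph node (edgeR adjusted p = 0.00149) and at least 8.71-fold in the spleen (edgeR adjusted p = 0.00835). The second of the spleen calls was lost without the 3 libraries that stood apart (edgeR adjusted p = 0.196) and with limma-voom (adjusted p = 0.0875). Between the effector populations Il4 differed by 1.0 ± 0.61 in the lymph node (edgeR adjusted p = 0.55) and 1.71 ± 0.62 in the spleen (edgeR adjusted p = 0.175), higher in Id3- eTR in 3 of 3 mice in each tissue.

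Counted over the genes, Id3+ eTR over Id3+ cTR gave 5 of 7 calls in the lymph node, where 4.2% of all genes were called higher, and 4 of 7 in the spleen, where 2.93% were. Without the 3 libraries that stood apart the spleen count was 1 of 7, Ebi3 (3.24, edgeR adjusted p = 0.0386), chosen for naming after its value was seen. Id3- eTR over Id3+ eTR gave 2 of 7 in the lymph node against 1.45% of all genes, and 3 of 7 in the spleen against 1.53%. Each of these calls was in the direction of a higher level in the effector population named first. These 3 differences of a tissue share libraries, so their calls are not independent of each other.

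The level in Id3+ eTR as a percentage of that in Id3- eTR of the same mouse and tissue put the genes on 1 scale. In the lymph node it was 1.21 ± 0.974% for Il10, 2.33 ± 1.77% for Fgl2 and 36.8 ± 5.06% for Areg (SD, n = 3 each). It was 49.4 ± 11.8% for Il4, 91.8 ± 51.3% for Ifng, 97.0 ± 33.2% for Ebi3 and 113 ± 63.4% for Penk. In the spleen it was 5.15 ± 6.47% for Il10, 8.52 ± 4.33% for Fgl2, 26.9 ± 14.5% for Areg, 35.7 ± 17.1% for Il4, 37.0 ± 2.10% for Ifng, 55.1 ± 16.3% for Ebi3 and 70.1 ± 13.9% for Penk. Il10 and Fgl2 stood lowest and Penk highest in both tissues. Among Ebi3, Penk and Ifng of the lymph node the mice spread widely, from 54.7% (Ifng, mouse 87) to 182% (Penk, mouse 84), and the order of these 3 genes lies within that spread.

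**Figure D3:**
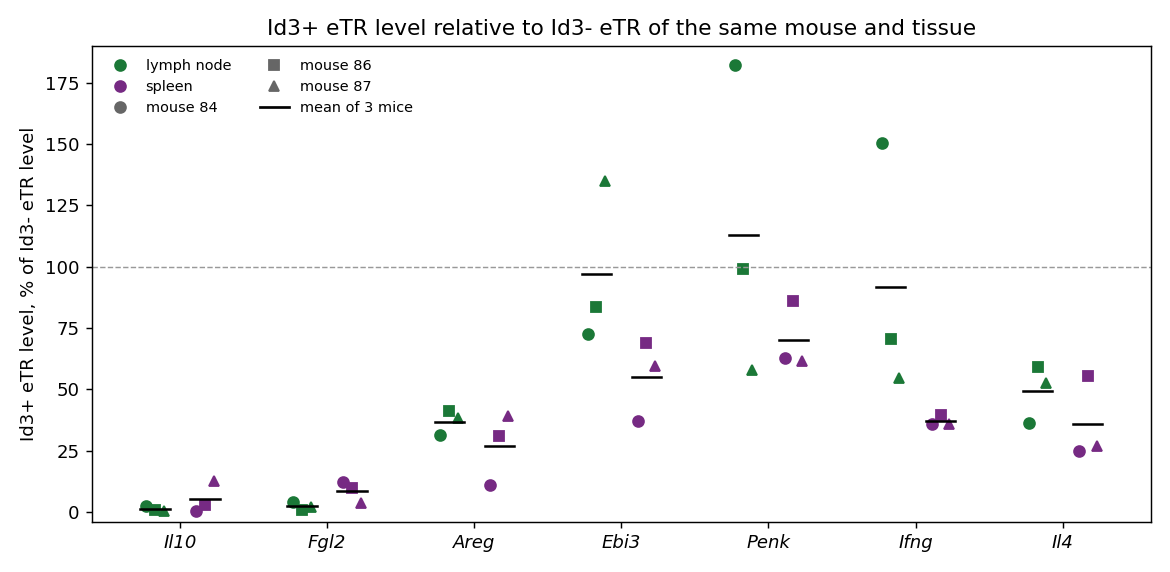
Level in Id3+ eTR as a percentage of the level in Id3- eTR of the same mouse and tissue (vertical axis) for the 7 genes, with 1 point per mouse and a bar at the mean of 3. Il10 lies between 0.338 and 12.5% and Fgl2 between 0.681 and 12.2%, whereas lymph node Ebi3, Penk and Ifng lie on both sides of 100%, the dashed line.

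Whether the 2 population differences of a gene were unequal was tested directly, as the difference of Id3- eTR over Id3+ eTR minus that of Id3+ eTR over Id3+ cTR. This test was chosen after the values were seen. In the lymph node 3 of 7 genes were called lower, where 1.41% of all genes were, so their difference between the effector populations was the smaller. These were Ifng at -5.29 ± 1.03 (edgeR adjusted p = 0.0111), Ebi3 at -2.91 ± 0.65 (edgeR adjusted p = 0.0304) and Il4 (edgeR adjusted p = 0.0472), whose value rests on the 0 counts of Id3+ cTR and is not printed. Il10 and Fgl2 pointed the other way in 3 of 3 mice, at 4.52 ± 2.17 (edgeR adjusted p = 0.456) and 4.28 ± 1.36 (edgeR adjusted p = 0.153), and were not called. Penk gave -2.74 ± 0.84 (edgeR adjusted p = 0.135) and Areg -1.52 ± 0.75 (edgeR adjusted p = 0.476). Penk was called with limma-voom (-3.20, adjusted p = 0.0323) and without lymph node Id3+ cTR of mouse 86 (-4.05, edgeR adjusted p = 0.00697).

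These 3 calls were not stable. With mouse as a block, Ebi3 gave -2.92 (edgeR adjusted p = 0.0505). Leaving out single lymph node libraries gave between 0 and 2 calls, and 0 without Id3+ eTR of mouse 84. Ifng was lost without that library alone (-4.63, edgeR adjusted p = 0.077), Il4 without any of the 9 lymph node libraries and Ebi3 without any of 7 of them. With 1 library left out the Ifng value ranged from -7.93 to -4.63. Its size rests on few counts, as lymph node Id3+ cTR held 12 counts of Ifng, 11 of them in mouse 86. Il4 was also lost with no filter on low counts (edgeR adjusted p = 0.0662), with limma-voom (adjusted p = 0.164) and in a fit of the compared groups alone (edgeR adjusted p = 0.0648). In the spleen 0 of 7 were called, where 0.595% of all genes were called in either direction. There 2 of 7 had an unadjusted p under 0.05, as did 15% of all genes, DESeq2 called 1 and limma-voom 0, and Ebi3 gave -3.17 ± 0.73 (edgeR adjusted p = 0.0656).

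Between the tissues, none of the 7 genes was called in any population. For lymph node over spleen, 0 of 7 were called by edgeR, DESeq2 and limma-voom alike, where edgeR called 0.305% of all genes in Id3- eTR, 0.289% in Id3+ eTR and 0.00804% in Id3+ cTR. At an unadjusted p under 0.05 the counts were 0 of 7 in Id3- eTR, 2 of 7 in Id3+ eTR and 2 of 7 in Id3+ cTR, where the shares of all genes were 7.91%, 11.9% and 7.77%. In Id3- eTR, Ifng stood at -0.82 ± 0.51 (edgeR adjusted p = 0.807), negative in 3 of 3 mice, while Il10, Fgl2 and Areg, positive in 3 of 3 mice, stood at 0.43 ± 0.50, 0.47 ± 0.50 and 0.56 ± 0.41 (edgeR adjusted p = 0.974, 0.955 and 0.862). In Id3+ eTR, Areg stood at 1.02 ± 0.44 in the lymph node over the spleen (edgeR adjusted p = 0.372). Il10 was at -1.75 ± 0.82 there (edgeR adjusted p = 0.415), a value that turned to 0.063 without spleen Id3+ eTR of mouse 87.

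**Figure D4:**
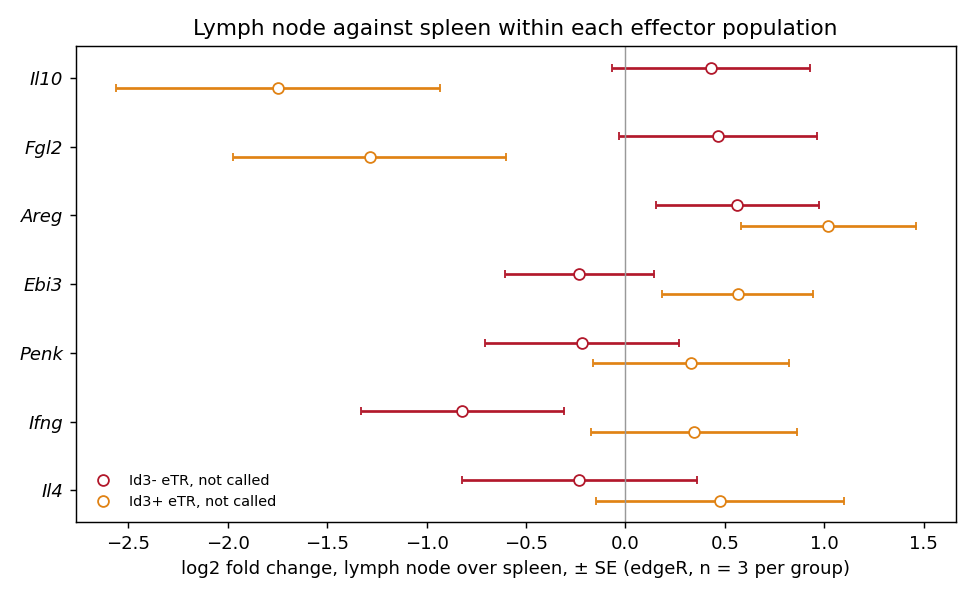
Log2 fold change of lymph node over spleen ± SE (horizontal axis) of the 7 genes in Id3- eTR and in Id3+ eTR, from edgeR with 3 libraries per group. All points are open, as none was called, and every gene except Areg lies on opposite sides of 0 in the 2 populations.

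In Id3+ cTR, where counts were low, Ebi3 was at 1.62 ± 0.56 and Ifng at -2.43 ± 0.87 in the lymph node over the spleen (edgeR adjusted p = 0.481 and 0.491). Il4 had no count in either tissue there and so has no value. Whether a population difference itself differed between the tissues was tested as an interaction, and 0 of 7 genes were called in any of the 3 interactions by edgeR, DESeq2 or limma-voom. Of all genes, edgeR called 0.0241% for Id3- eTR over Id3+ cTR and 0% for each of the others. At an unadjusted p under 0.05, 1 of 7 was found for Id3- eTR over Id3+ cTR (Ebi3, -1.85 ± 0.67), 2 for Id3+ eTR over Id3+ cTR (Areg, 1.88 ± 0.70, and Ifng, 2.77 ± 1.02) and 1 for Id3- eTR over Id3+ eTR (Il10, 2.18 ± 0.96), the lowest edgeR adjusted p being 0.434. The shares of all genes at that unadjusted threshold were 6.88%, 9.48% and 6.03%, in the same order of interactions. Calls of a member in 1 tissue and not in the other, as for Areg, are thus not shown to differ between the tissues.

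Ordered by mean level over the 6 groups, Il10 was highest in lymph node Id3- eTR (250 ± 33.0) and then spleen Id3- eTR (187 ± 14.9), whose libraries did not overlap (SD, n = 3 each). From spleen Id3+ eTR down, each group overlapped the next. Fgl2 had the same 4 leading groups, with lymph node and spleen Id3- eTR overlapping at 201 ± 22.7 and 146 ± 42.0. Areg ran from lymph node Id3- eTR (74.1 ± 9.17) through spleen Id3- eTR (50.4 ± 9.30) and lymph node Id3+ eTR (27.0 ± 2.16) to spleen Id3+ eTR (13.3 ± 7.63), with no overlap between these neighbours. Ebi3 led in spleen Id3- eTR (99.3 ± 20.5), and its 4 effector groups overlapped one into the next down to spleen Id3+ eTR (53.1 ± 12.8).

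Penk likewise led in spleen Id3- eTR (255 ± 42.1), with all 4 effector groups overlapping in turn down to spleen Id3+ eTR (175 ± 6.96). Ifng stood alone in spleen Id3- eTR (148 ± 24.1), above the overlapping lymph node Id3- eTR (82.8 ± 20.9), lymph node Id3+ eTR (70.3 ± 25.1) and spleen Id3+ eTR (54.9 ± 12.2). Il4 was at 15.9 ± 9.26 in spleen Id3- eTR and 13.4 ± 4.98 in lymph node Id3- eTR, which overlapped, then at 6.71 ± 3.13 and 4.81 ± 1.76 in lymph node and spleen Id3+ eTR. Set against each other per kilobase of exon (GENCODE M21), the mean levels in lymph node Id3- eTR were 191 for Il10, 133 for Penk, 72.9 for Ebi3, 63.9 for Ifng, 61.0 for Areg, 53.0 for Fgl2 and 11 for Il4. In lymph node Id3+ eTR they were 136 for Penk, 68.4 for Ebi3, 54.3 for Ifng, 22.2 for Areg, 5.47 for Il4, 2.14 for Il10 and 1.26 for Fgl2.

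The genes whose log2 CPM followed each member most closely over the 18 libraries are given as a description, since all pairs share the libraries and the 3 populations. Il10 was close to Anxa1 (Pearson r = 0.967) and Ltb4r1 (0.947), and Fgl2 to Vps54 (0.957) and Ang (0.951). Areg was followed by Crem (0.967), Batf (0.959) and Cela1 (0.946), and Ebi3 by Gstt2 (0.967), Tmem205 (0.948) and March3 (0.946). Penk and Ifng were in each other's list at 0.943, Penk with Grina (0.936) and Gm5530 (0.914) beside it and Ifng with Gstt3 (0.956) and Sntb2 (0.942). Il4 was most like Krt83 (0.971), Serpina3g (0.967) and Cass4 (0.964).

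Of 27 receptors, partner chains and processing enzymes of the mediators 19 could be tested, and in Id3- eTR over Id3+ cTR 5 were called higher and 1 lower in the lymph node, 3 higher and 2 lower in the spleen. Of all 12445 genes tested, 8.26% were called higher in the lymph node and 7.17% in the spleen. In either direction 1610 and 1526 of them were called. The list medians were 0.14 in the lymph node and 0.35 in the spleen. Il10ra, the ligand-binding chain of the IL-10 receptor, was higher by 2.03 ± 0.27 in the lymph node and 2.09 ± 0.27 in the spleen (edgeR adjusted p = 5.03e-05 and 5.75e-05), and Il12rb1, a receptor chain for IL-12 and IL-23, by 2.49 ± 0.60 and 3.65 ± 0.66 (edgeR adjusted p = 0.0102 and 0.00111). Ifngr2, the signalling chain of the interferon-gamma receptor, was lower, at -1.45 ± 0.30 and -1.45 ± 0.31 (edgeR adjusted p = 0.00365 and 0.00414). Over the 18 libraries Egfr, the receptor of amphiregulin, had 11 counts, and the opioid receptor genes Oprm1 and Oprd1 had 254 and 4. These 3 were named after their values were seen.

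Of 64 other genes for secreted or surface-shed mediators 40 were tested. In Id3- eTR over Id3+ cTR 17 were called higher and 1 lower in the lymph node, 18 higher and 2 lower in the spleen, and 17 were called the same way in both. The shares of all genes called higher were 8.26% in the lymph node and 7.17% in the spleen. The list median was 2.05 in the lymph node and 2.32 in the spleen (2.03 with genes at 0 counts at their bound), below the medians of the 7 members. Named by the mean fitted log2 change of both tissues were Angptl2, an angiopoietin-like factor, Metrnl, a meteorin-like cytokine, and Anxa1, annexin A1. That order rests on spleen groups at 0 counts and is not one of size, since Cxcl2 was at least 150-fold higher in the lymph node and Lgals3 at least 85.9-fold in the spleen, both named after their values were seen. In the spleen Angptl2, Metrnl and Anxa1 had no count in Id3+ cTR and were at least 93.4-fold, 112-fold and 61.1-fold higher in Id3- eTR. Lymph node Id3+ cTR held 2, 1 and 2 counts of them, and the ratios there were 456 (95% counting interval 126 to 3769), 197 (35.0 to 7830) and 308 (85.0 to 2552).

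Markers of other cells that the sort could have let through moved with some of these differences. The summed normalised signal of 10 myeloid and dendritic markers was 338 to 379 in lymph node Id3- eTR, against 226 to 463 in Id3+ eTR with 145 to 175 in Id3+ cTR. It was 258 to 309 in spleen Id3- eTR, against 157 to 269 in Id3+ eTR with 141 to 273 in Id3+ cTR. For Id3- eTR over Id3+ cTR, of its 6 tested genes 4 were called higher in the lymph node and 3 in the spleen, namely Fcer1g, Tyrobp, Cst3 and Spi1 in the lymph node and Cd68, Fcer1g and Tyrobp in the spleen. Of all genes, 8.26% and 7.17% were called higher in these tissues. Csf1r and Itgax, defining genes of macrophages and dendritic cells, had 55 and 4 counts over the 18 libraries and were at 0 in both Id3- eTR and Id3+ cTR of the lymph node, while no gene of the list was at 0 in spleen Id3- eTR. Other myeloid genes of the list had more, with 2403 counts of Lyz2, 368 of Cd68 and 88 of Adgre1, or fewer, with 22 of Itgam. The highest library values of Lyz2, Cd68 and Adgre1 were 209, 30.3 and 14.1. Lymph node Id3+ eTR of mouse 84 gave both the 209 of Lyz2 and the highest myeloid sum, 463. That library also had the highest Ifng and Penk values of its group, 99.3 and 274. The sum of 8 CD8 T and NK cell markers was 186 to 238 in lymph node Id3- eTR, against 160 to 250 in Id3+ eTR, with 61.5 to 110 in Id3+ cTR. It was 195 to 228 in spleen Id3- eTR, against 107 to 139 in Id3+ eTR, with 81.9 to 177 in Id3+ cTR.

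For Id3- eTR over Id3+ cTR, 2 of 6 tested CD8 T and NK cell genes were called higher in the lymph node, Nkg7 at 2.68 ± 0.35 (edgeR adjusted p = 4.6e-05) and Klrk1 at least 11.5-fold (edgeR adjusted p = 0.0474). In the spleen 1 was, Nkg7 at 1.83 ± 0.34 (edgeR adjusted p = 0.00141). The CD8 chain genes Cd8a and Cd8b1 were not called in either tissue, with 643 and 1950 counts over the 18 libraries. Their highest library values were 52.6 in spleen Id3+ eTR and 68.5 in lymph node Id3+ cTR, both of mouse 84. The NK cell receptor genes gave Klrk1 at 5.28 ± 1.72 in the spleen (edgeR adjusted p = 0.0671) and Klrb1c, which had no count in Id3+ cTR, at least 5.24-fold in the lymph node and 5.58-fold in the spleen (edgeR adjusted p = 0.177 and 0.175), while Ncr1 was at 0 in all libraries. For Id3+ eTR over Id3+ cTR, Nkg7 at 2.55 ± 0.35 (edgeR adjusted p = 0.000206) and the B cell list's Cd74 at 0.81 ± 0.15 (edgeR adjusted p = 0.00379) were called higher in the lymph node, and no marker of another cell type was called in the spleen. For Id3- eTR over Id3+ eTR, Gzma and Nkg7 were called higher in the spleen.

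The 7 mast cell and basophil markers, of cells known to make Il4, summed to at most 18.7 in any library. Mcpt8, Fcer1a and Prss34 were at 0 throughout, while Hdc, Cpa3, Kit and Ms4a2 had 241, 138, 79 and 2 counts. None of the 3 tested was called. Every spleen Id3- eTR library (lowest sum 14.7) lay above every spleen Id3+ cTR library (highest 10.3), whereas these populations overlapped in the lymph node. The spleen Id3- eTR sums lay within the range of Il4 itself there, 6.87 to 25.4. In lymph node Id3- eTR the highest sum, 9.59, was below the lowest Il4 value, 10.2. In spleen Id3+ eTR the sums, 8.60 to 16.1, were all above the Il4 values there, 3.78 to 6.85. In lymph node Id3+ eTR the sums, 6.45 to 17.7, overlapped Il4 at 3.97 to 10.1. B cell markers were called higher for 2 of 6 tested genes in lymph node Id3- eTR over Id3+ cTR (Cd74 and Ighm) and lower for 1 of 6 in the spleen. Their sum was 1185 to 1292 in lymph node Id3- eTR against 791 to 929 in Id3+ cTR, and 1148 to 1289 in spleen Id3- eTR against 1146 to 1334 in Id3+ cTR, with Pax5 at 0 in Id3- eTR of both tissues. None of 3 tested plasma cell genes was called, and 1 of 5 erythroid and platelet genes was called lower in spleen Id3- eTR. Of the 7 TR genes, 3 were called higher in the lymph node (Ctla4, Ikzf2 and Tnfrsf18) and 2 higher and 1 lower in the spleen. The part of such cells in the mediator differences was not tested.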

How the data were processed

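RNA of 18 sorted libraries (3 mice, 6 groups) was analysed. The counts per gene were deposited by the authors. SAMtools, Picard, FastQC, TopHat, Bowtie and HTSeq 0.4.1 are listed, with no order or role, per the submitters' processing notes. For the genome build, the sources used here state nothing. The normalised signal deposited by the authors equalled the count times 1 factor per library for 99.986% of values within 0.1% (13883 genes matched by symbol). How the factors were made is not stated. Identifiers without a symbol (5072, 0.891% of counts) stayed in the library sizes.

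Counts were tested with edgeR 4.0.16 (R 4.3.3): filterByExpr with a minimum count of 10, TMM scaling, 1 robust quasi-likelihood fit over the 6 groups (12 residual degrees of freedom) and Benjamini-Hochberg adjustment over 12445 genes, called under 0.05. Log2 CPM used a prior count of 2. Simulated data with known changes were used to test the scripts. The same 3 mice gave a library to every group, so mouse pairs the samples. Deviations from group means correlated at a median r of 0.0188 over 45 same-mouse pairs and -0.00673 over 90 pairs of different mice. Alternatives were no filter, RLE size factors, DESeq2 1.42.0, limma-voom (limma 3.58.1), mouse as a block, the compared groups alone, each library left out, and the 3 spleen libraries left out, which were picked from an earlier look at these data. Percentages were recomputed with TMM and RLE scaling. The 7 genes and all lists were chosen with earlier results of these data known. Genes of the partner and other mediator lists were named where called the same way in both tissues in Id3- eTR over Id3+ cTR (the 3 largest by mean absolute change per list), and 3 genes per member by Pearson correlation of log2 CPM, of which some are not reported here. The step difference was chosen after values were seen, and other names are marked so in the text or belong to the marker lists. A floor for a group at 0 is 3 counts over the group, and floors and intervals cover counting error only. No per-sample column was left unused (0).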

Additional observations from a re-analysis of the deposited data

Results flagged for a closer look

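Fgl2 of the effector populations pointed opposite ways between the tissues. In Id3- eTR it was higher in the lymph node than in the spleen in 3 of 3 mice (log2 0.47 ± 0.50), and in Id3+ eTR it was lower in the lymph node in 3 of 3 mice (-1.29 ± 0.69). The interaction, lymph node minus spleen of Id3- eTR over Id3+ eTR, was 1.75 ± 0.85 and was not called (edgeR adjusted p = 0.817). The Id3+ eTR side of Fgl2 rests on 33 counts over the 3 lymph node libraries and 88 over the 3 spleen libraries. Every other gene except Areg also lay on opposite sides of 0 in the 2 populations, but not in 3 of 3 mice both ways. The same interaction was larger for Il10, at 2.18 ± 0.96, and was not called either (edgeR adjusted p = 0.805).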

How the results depend on the processing

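Of 28 population calls of the 7 genes, 23 held under every alternative run. The 5 others were all in the spleen, namely Areg of Id3- eTR over Id3+ eTR, Penk of Id3- eTR over Id3+ cTR, and Penk, Ifng and Il4 of Id3+ eTR over Id3+ cTR. For Id3+ eTR over Id3+ cTR in the spleen, 4 calls became 1 with limma-voom, 2 with the compared groups alone and 1 without the 3 libraries that stood apart. For Id3- eTR over Id3+ eTR in the spleen, limma-voom called 5 instead of 3. The step difference (Id3- eTR over Id3+ eTR minus Id3+ eTR over Id3+ cTR) gave 1 spleen call with no filter and 1 with DESeq2 instead of 0, and 0 to 1 with a library left out, where the lymph node gave 0 to 2 instead of 3. The causes were not tested. The level in Id3+ eTR as a percentage of Id3- eTR moved by less than 1 SD with TMM or RLE scaling. With 1 mouse left out it ranged from 0.650 to 1.55% for Il10, 1.39 to 3.15% for Fgl2 and 78.4 to 141% for Penk in the lymph node, and from 1.47 to 7.55% for Il10 in the spleen. With mouse as a replicate block the number of members called was the same in every comparison except the lymph node step difference (2 instead of 3).

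Directions turned for values near 0 or on few counts. Penk of lymph node Id3- eTR over Id3+ eTR was 0.039 with limma-voom and -0.25 to 0.18 with a library left out, and Ebi3 there was -0.032 to 0.23. The spleen step difference of Fgl2 was -0.15 with limma-voom, -3.79 without the 3 libraries and -1.55 to 1.17 with 1 left out, and that of Il10 was -4.33 without the 3 and -0.54 to 4.46 with 1 left out. Lymph node over spleen, Il4 of Id3- eTR ranged from -0.58 to 0.27 and Il10 of Id3+ eTR from -2.36 to 0.063.

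Over all genes, DESeq2 called 1020 instead of 538 for spleen Id3+ eTR over Id3+ cTR, 751 instead of 408 and 566 instead of 326 for Id3- eTR over Id3+ eTR in the spleen and lymph node, and 416 instead of 219 and 330 instead of 74 for the step difference in the lymph node and spleen. For lymph node over spleen it called 147 instead of 38 in Id3- eTR, 202 instead of 36 in Id3+ eTR and 108 instead of 1 in Id3+ cTR. In spleen Id3+ eTR over Id3+ cTR, limma-voom called 245, the compared groups alone 145 and the fit without the 3 libraries 69. Without them spleen Id3- eTR over Id3+ cTR gave 730 instead of 1526. Low counts limit Il10, Fgl2 and Il4 outside Id3- eTR most.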
